A study of Mus musculus with 30 samples.

Results

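The Cyp4a fatty acid hydroxylases were taken as every row of the 2 count tables whose gene symbol was Cyp4a followed by a number and at most 1 letter. This gave 6 genes of the 14173 in the tables, Cyp4a10, Cyp4a12a, Cyp4a12b, Cyp4a14, Cyp4a31 and Cyp4a32, and all 6 had enough reads to be tested in at least 1 comparison. Another 5 annotated genes and pseudogenes of the family were not in the tables and were not analysed here. Genes were taken by symbol, but the family itself was chosen by measured values in earlier results of the same data, namely the fold change of Cyp4a12b on Soy-10% relative to Soy-20% + SAA. That difference, and every other comparison that holds Soy-10% or Soy-20% + SAA livers, is therefore given below for Cyp4a12b as values without a p, and only Cas-5% against Cas-20% is tested for it.

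The livers came from male C57BL/6J mice (spelled C57BL6/J in the labels), 6 months old, that had eaten 1 of 5 purified diets for 12 weeks from the age of 12 weeks and were fasted for 4 h before sampling. The Cas-20% diet (labelled NP) held 20% casein with 0.57 g methionine and 0.41 g cysteine per 100 g, and the Cas-5% diet (LP) held 5% casein with 0.15 and 0.1 g. The Soy-20% diet (20Soy) held soy protein with 0.22 g of each, Soy-20% + SAA (20Soy_SAA) held soy with sulfur amino acids added to 0.58 and 0.41 g, and Soy-10% (10Soy) held 11.5% soy by its label with 0.13 g of each. Each diet gave 6 libraries of 1 mouse each, so that mice were the replicates and p-values measure the spread between mice. The study used these proteins to ask whether the known effects of methionine restriction can be had from whole protein sources.

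Counted reads per library ranged from 7694015 to 14565542. The 7 hepatocyte markers summed to between 699579 and 933451 normalized counts in every liver, and none of the 5 kidney markers was in the tables. Libraries 3 to 6 of Soy-20% + SAA stood apart, because their counts rose with the GC content of transcript ends by 0.0538 to 0.197 on the log2 scale per 10% GC, against −0.0600 to 0.0287 in the other 26. Results that rest on this diet are given below with and without these 4 libraries where that matters. Only 2 livers of this diet remain without them.

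Cyp4a enzymes are microsomal cytochromes P450 that place a hydroxyl group on the last carbon of a fatty acid, the first step of omega-oxidation. The resulting dicarboxylic acids are shortened in peroxisomes, a route that carries more fat when mitochondrial oxidation is overloaded or when a liver is fasted. Cyp4a10 and Cyp4a14 are textbook targets of the fatty acid sensor PPARA, whereas Cyp4a12a is the male-predominant hydroxylase of arachidonic acid and depends on androgen.

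The 6 genes lay in 1 cluster on chromosome 4 of GRCm38, and all were annotated as protein coding. Cyp4a12a (ENSMUSG00000066071, 115299046 to 115332815) and Cyp4a12b (ENSMUSG00000078597, 115411624 to 115439034) lay on the plus strand. Cyp4a14 (ENSMUSG00000028715, 115486200 to 115496142) followed on the minus strand. Cyp4a10 (ENSMUSG00000066072, 115518264 to 115533649), Cyp4a31 (ENSMUSG00000028712, 115563649 to 115579015) and Cyp4a32 (ENSMUSG00000063929, 115600969 to 115621602) closed the cluster on the plus strand.

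The family held 2 sets of near copies. Coding sequences of Cyp4a12a and Cyp4a12b were 98.5% identical, those of Cyp4a10 and Cyp4a31 96.6%, and those of Cyp4a10 and Cyp4a32 97.2%, whereas Cyp4a14 matched Cyp4a10 at 76.1% of bases. The stretch around the codon for the cysteine that binds the heme iron (tgc in aactgcattggg) shows how close they are. It covers 75 coding bases joined across an exon boundary, from bases 1321 to 1395 of Cyp4a10, 1315 to 1389 of Cyp4a14 and 1318 to 1392 of Cyp4a12a, with capitals at the 14 bases where Cyp4a14 differs from Cyp4a10. On GRCm38 these bases span chr4:115529478-115532564 (plus strand), chr4:115487278-115489829 (minus strand) and chr4:115328962-115331867 (plus strand), introns included, and are written 5′ to 3′. The Cyp4a31 and Cyp4a32 stretches were identical to that of Cyp4a10, and the Cyp4a12b stretch to that of Cyp4a12a.
Cyp4a10: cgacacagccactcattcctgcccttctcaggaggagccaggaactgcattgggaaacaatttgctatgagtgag
Cyp4a14: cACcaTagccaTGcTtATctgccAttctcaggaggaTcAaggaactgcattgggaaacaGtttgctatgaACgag
Cyp4a12a: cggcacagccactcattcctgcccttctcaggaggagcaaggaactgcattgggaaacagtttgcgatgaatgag
Even in the coding window where they differed most, bases 676 to 750 at chr4:115326674-115326748 and chr4:115432927-115433001 on the plus strand, Cyp4a12b differed from Cyp4a12a at 6 of 75 bases, in capitals.
Cyp4a12a: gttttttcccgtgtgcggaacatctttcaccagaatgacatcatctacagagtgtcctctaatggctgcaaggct
Cyp4a12b: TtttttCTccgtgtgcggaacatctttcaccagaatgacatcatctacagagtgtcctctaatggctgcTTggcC

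Since the libraries sample transcript 3′ ends, the last 500 bases of each transcript decide which reads can be told apart. Every 50-base window was unique in Cyp4a14, and 94.0% were in Cyp4a10 and in Cyp4a31. In Cyp4a12a and Cyp4a12b 63.0% of windows were unique, the rest being shared between these copies, and in Cyp4a32 33.3%. The annotated Cyp4a32 transcript has 1530 bases, 1527 of them coding, so its windows describe coding sequence. Whether reads from a longer Cyp4a32 end were counted is not known. Counts of Cyp4a12a, Cyp4a12b and Cyp4a32 are therefore uncertain one by one, and how shared reads were assigned is not given in the sources used here.

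Together the family took a median of 0.0887% of reads on Cas-20% and 0.232% on Cas-5%, with 0.116% on Soy-20%, 0.130% with added SAA and 0.179% on Soy-10%. Cyp4a14 gave a median of 22.7% of the family's reads on Cas-20%. It gave 73.9% on Cas-5%, 46.6% on Soy-20%, 41.7% on Soy-20% + SAA and 67.1% on Soy-10%. Cyp4a12b gave 15.1% of the family's reads on Cas-20% and 0.404% on Cas-5%, and the livers of these diets did not overlap in either share.

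**Figure D1:**
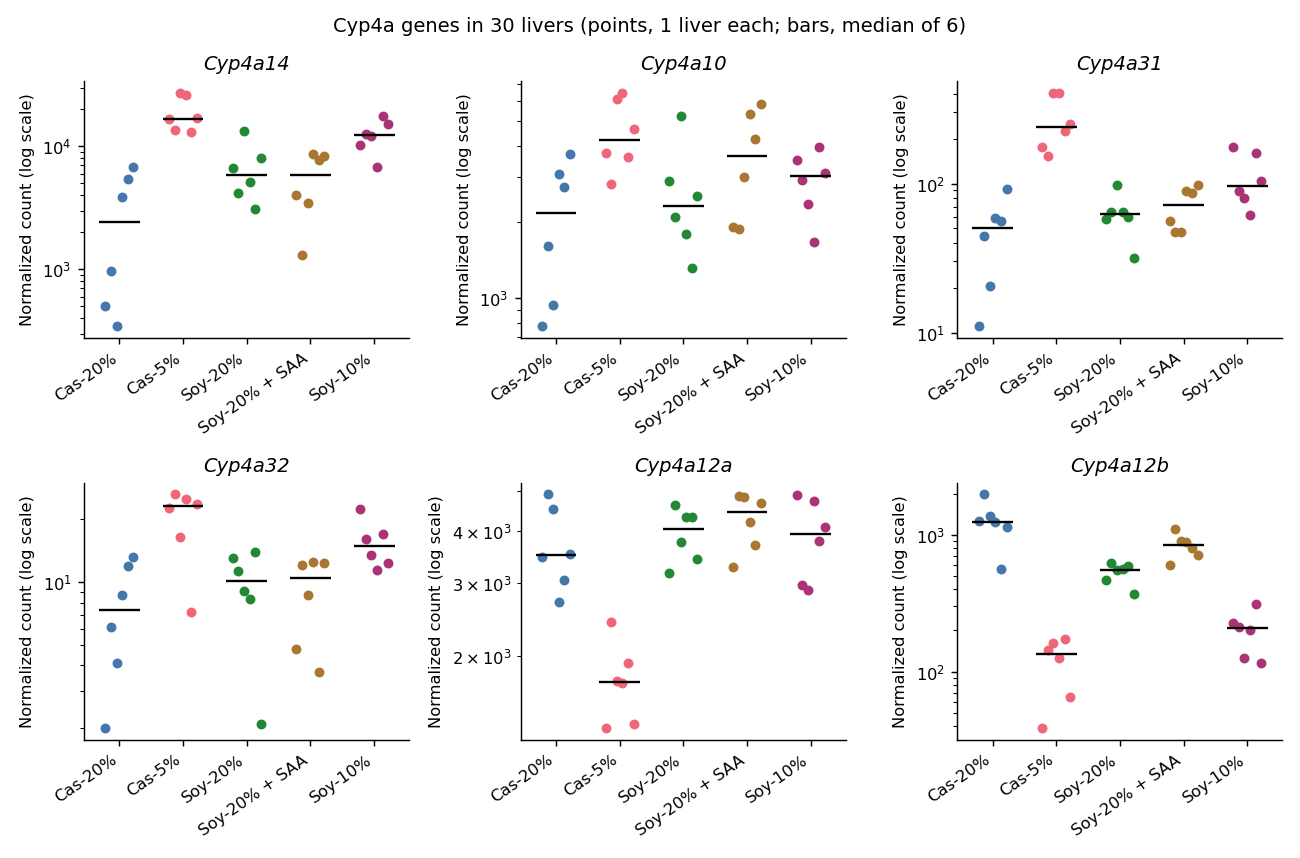
Normalized count of each Cyp4a gene (vertical axis, log scale) in the 6 livers of each of 5 diets, with the median as a bar. Cyp4a14 is highest on Cas-5%, with livers from 13049 to 27341, and Cyp4a12b is lowest there, with livers from 38.6 to 174.

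Casein restriction split the family. Cas-5% livers had more Cyp4a14, Cyp4a31, Cyp4a32 and Cyp4a10 mRNA and less Cyp4a12b and Cyp4a12a mRNA than Cas-20% livers, and all 6 genes passed the edgeR quasi-likelihood test at an adjusted p of 0.05, beside 24.9% of all 12076 genes tested. The 4 rises stand beside 11.6% of genes called higher and the 2 falls beside 13.3% called lower. Cyp4a32 could reach the test through Cas-5%, where its counts were higher. It also passed with no filter on low counts (edgeR adjusted p = 0.0117). In 4 members, 2 higher and 2 lower, the livers of the 2 diets did not overlap, as was so for 12.9% of genes (5.14% higher and 7.73% lower). In whole liver, fewer cells of a type and less RNA per cell cannot be told apart.

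Cyp4a14, a lauric acid hydroxylase, ranged from 344 to 6843 normalized counts on Cas-20% with a median of 2415, and from 13049 to 27341 with a median of 16780 on Cas-5%. Every Cas-5% liver stood above every Cas-20% liver. The Cas-20% livers split widely by number, at 344 to 970 in livers 1 to 3 and 3860 to 6843 in livers 4 to 6. The cause of this split was not tested, and the fold change that follows is over all 6. The log2 fold change was 2.68 ± 0.58 (SE, n = 6 per diet, 95% interval 1.44 to 3.92, edgeR adjusted p = 0.00281), a 6.41-fold rise.

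Cyp4a31, a near copy of Cyp4a10 with far fewer reads, ranged from 11.01 to 91.9 normalized counts on Cas-20% with a median of 50.2, and from 153 to 406 with a median of 239 on Cas-5%. Here too the livers did not overlap. The log2 fold change was 2.54 ± 0.35 (SE, edgeR adjusted p = 4.61e-05).

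Cyp4a10 ranged from 774 to 3702 on Cas-20% with a median of 2176, and from 2811 to 6470 with a median of 4207 on Cas-5%. The ranges overlapped, and 4 of 6 Cas-5% livers were above all Cas-20% livers. Its log2 fold change was 1.11 ± 0.33 (SE, edgeR adjusted p = 0.0197), and Cyp4a32, with only 2 to 27 counts in any liver, rose by 1.38 ± 0.37 (adjusted p = 0.0106).

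Cyp4a12b ranged from 567 to 1977 on Cas-20% with a median of 1252, and from 38.6 to 174 with a median of 135 on Cas-5%. All 6 restricted livers were below all 6 controls. The log2 fold change was −3.40 ± 0.31 (SE, 95% interval −4.06 to −2.74, edgeR adjusted p = 8.35e-07), a 10.5-fold fall.

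Cyp4a12a, the arachidonic acid hydroxylase, ranged from 2701 to 4899 on Cas-20% with a median of 3494, and from 1344 to 2418 with a median of 1731 on Cas-5%. The livers again did not overlap, but the change was smaller, at −1.06 ± 0.16 (SE, edgeR adjusted p = 9.33e-05). With both copies summed to 1 row the log2 fold change was −1.39 (adjusted p = 1.15e-05), and with Cyp4a10, Cyp4a31 and Cyp4a32 summed it was 1.16 (adjusted p = 0.0155).

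Soy restriction was compared with both soy controls, which share the Soy-10% livers. Against Soy-20%, none of the 5 members other than Cyp4a12b passed in edgeR or in DESeq2, and 3 of them had an unadjusted edgeR p under 0.05, beside 0.866% of 11897 genes called in either direction and 0.546% called lower. Cyp4a12b ranged from 372 to 618 on Soy-20% with a median of 558, and from 115 to 312 with a median of 207 on Soy-10%. The 6 restricted livers lay below all 6 controls, as was so in 0.748% of genes. The log2 fold change was −1.42 ± 0.19 (SE, 95% interval −1.83 to −1.01), with no test because these Soy-10% values were among those that chose the family. With Cyp4a12a and Cyp4a12b summed it was −0.13, since Cyp4a12a, with far more reads, had a log2 fold change of −0.02 ± 0.13 (95% interval −0.30 to 0.25).

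Cyp4a14 ranged from 3096 to 13293 on Soy-20% with a median of 5862, and from 6788 to 17670 with a median of 12415 on Soy-10%. The ranges overlapped. Its log2 fold change of 0.89 ± 0.29 did not pass (95% interval 0.28 to 1.499, edgeR adjusted p = 0.179), but without liver 3 of Soy-20%, the highest of that diet, it was 1.21 (adjusted p = 0.0224). Cyp4a31 had 0.81 ± 0.26 (adjusted p = 0.176), Cyp4a32 0.67 ± 0.30 (adjusted p = 0.360) and Cyp4a10 0.14 ± 0.27 (adjusted p = 0.899).

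Against Soy-20% + SAA, Cyp4a14 rose and the other 4 members tested did not pass, beside 17.0% of 11983 genes called and 8.51% called higher. Cyp4a14 ranged from 1311 to 8723 on Soy-20% + SAA with a median of 5895, so that the ranges overlapped. Its log2 fold change on all livers was 1.15 ± 0.36 (SE, edgeR adjusted p = 0.0418). Without libraries 3 to 6 of Soy-20% + SAA, which left control livers at 4061 and 1311 only, it was 2.21 (adjusted p = 0.0116). The call on all livers was lost when any 1 of livers 1, 3 and 5 of Soy-20% + SAA was left out. The same held for livers 1, 2, 3, 5 and 6 of Soy-10%. Values then ranged from 1.03 to 1.26 and edgeR adjusted p from 0.0518 to 0.0900.

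Cyp4a10 ranged from 1874 to 5860 on Soy-20% + SAA with a median of 3626, and from 1668 to 3952 with a median of 3023 on Soy-10%. The ranges overlapped. Its log2 fold change was −0.35 ± 0.28 (edgeR adjusted p = 0.408) and turned to 0.62 (adjusted p = 0.217) without libraries 3 to 6, so that no direction can be given. Cyp4a31 had 0.64 ± 0.26 (adjusted p = 0.102), Cyp4a32 0.76 ± 0.29 (adjusted p = 0.0802) and Cyp4a12a −0.13 ± 0.14 (95% interval −0.43 to 0.16, adjusted p = 0.529).

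Cyp4a12b, whose value in this contrast was known when the family was chosen, ranged from 602 to 1101 on Soy-20% + SAA with a median of 845. The Soy-10% livers were all below them, as in 3.31% of genes. The log2 fold change was −2.07 ± 0.21 (SE), and −2.11 without libraries 3 to 6.

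**Figure D2:**
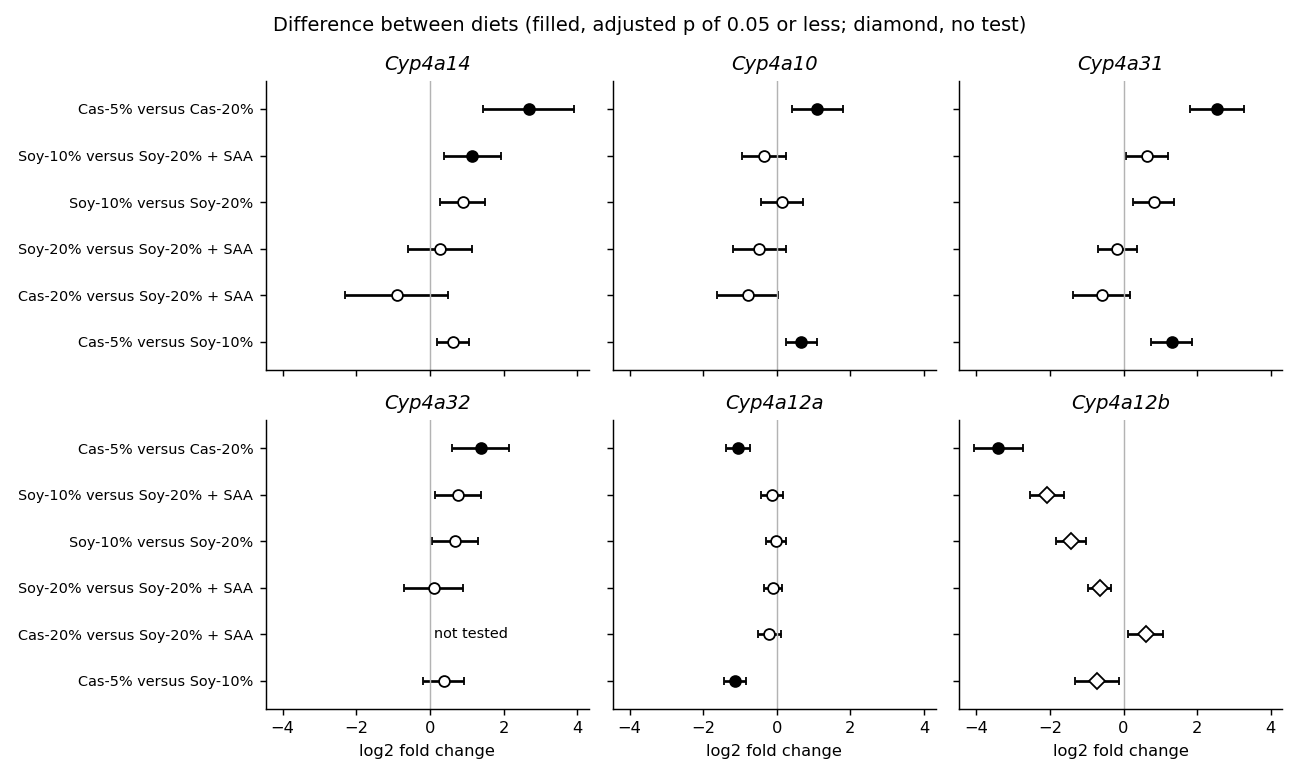
Log2 fold change (horizontal axis) with its 95% interval for each Cyp4a gene in 6 comparisons of diets, from 6 livers per diet. Filled points passed the edgeR test at an adjusted p of 0.05 and diamonds mark Cyp4a12b in the 5 comparisons given without a test. Casein restriction has the values farthest from 0, at 2.68 for Cyp4a14 and −3.40 for Cyp4a12b.

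The casein effect and the soy effect, the latter against Soy-20% + SAA, were subtracted in 24 livers. Protein fell from 20 to 5% with casein and from 20 to 11.5% with soy. Protein source and the size of this cut cannot be told apart here. Of 5 members tested, Cyp4a31 passed as higher and Cyp4a12a as lower, beside 8.69% of 12532 genes (3.20% higher and 5.49% lower). The casein effect on Cyp4a31 was larger by 1.90 ± 0.48 on the log2 scale (SE, edgeR adjusted p = 0.0164) and that on Cyp4a12a was lower by −0.93 ± 0.22 (adjusted p = 0.0128). For Cyp4a14 the difference was 1.52 ± 0.73 (95% interval 0.02 to 3.03, adjusted p = 0.187), for Cyp4a10 1.44 ± 0.47 (adjusted p = 0.0545) and for Cyp4a32 0.61 ± 0.50 (adjusted p = 0.466). For Cyp4a12b it was −1.33 ± 0.40, given without a test.

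Without libraries 3 to 6 of Soy-20% + SAA, which left 2 livers of that diet, neither call was kept. Cyp4a31 had 1.46 (edgeR adjusted p = 0.249) and Cyp4a12a −0.99 (adjusted p = 0.0703), beside −0.93 for Cyp4a12a on all 24 livers. The differences of Cyp4a14 and Cyp4a10 were then 0.46 and 0.48. DESeq2 called Cyp4a10 on all 24 livers (adjusted p = 0.0396). With Soy-20% as the soy control in place of Soy-20% + SAA, Cyp4a31 and Cyp4a12a passed in edgeR, at 1.72 (adjusted p = 0.0293) and −1.05 (adjusted p = 0.00332). Methionine then fell from 0.22 to 0.13 g per 100 g with soy, against 0.57 to 0.15 g with casein, so that this cut differed too.

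The restricted diets had similar methionine and cysteine contents but 5% casein against 11.5% soy. They differed directly in 3 of the 5 members tested, beside 10.7% of 12041 genes (4.59% higher and 6.14% lower). Cyp4a12a was lower on Cas-5% than on Soy-10%, where it ranged from 2891 to 4876 with a median of 3936. Every Cas-5% liver was below every Soy-10% liver, as in 4.09% of genes, and the log2 fold change was −1.13 ± 0.15 (SE, edgeR adjusted p = 9.13e-05). Cyp4a31 was higher on Cas-5% than on Soy-10%, where it ranged from 61.5 to 176 with a median of 96.6, by 1.31 ± 0.26 (adjusted p = 0.00346).

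Cyp4a10 was higher on Cas-5% than on Soy-10% by 0.66 ± 0.20 (SE, edgeR adjusted p = 0.0403), but DESeq2 gave an adjusted p of 0.0626. The call was also lost when any 1 of livers 3, 4 and 6 of Cas-5% or livers 2, 3, 4 and 6 of Soy-10% was left out, with adjusted p from 0.0545 to 0.0995. Cyp4a14 had 0.62 ± 0.21 (adjusted p = 0.0634) and Cyp4a12b, with no test, −0.73 ± 0.29. Without liver 2 or 5 of Cas-5% or liver 5 of Soy-10%, Cyp4a14 passed, at 0.70 to 0.75.

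No member tested passed between the control diets. Between Soy-20% and Soy-20% + SAA, edgeR called 0 of the 5 members tested beside 0.00838% of 11932 genes (1 gene, with 2892 genes at an unadjusted p under 0.05), while DESeq2 called 873 genes. The 5 members had unadjusted p of 0.181 to 0.788 in edgeR, and DESeq2 called none of the 4 for which it gave an adjusted p. Cyp4a12b ranged from 372 to 618 on Soy-20%, the diet with less methionine, and from 602 to 1101 on Soy-20% + SAA. Its ranges overlapped slightly, and the log2 fold change was −0.65 ± 0.15 (SE, 95% interval −0.96 to −0.34), with no test.

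Between Cas-20% and Soy-20% + SAA 0 of the 4 members tested passed in edgeR, beside 2.43% of 11988 genes, and DESeq2 called 0 as well. Their unadjusted p in edgeR were 0.0622 to 0.189, so that 0 were under 0.05. The intervals of Cyp4a14, −2.30 to 0.50, and of Cyp4a10, −1.62 to 0.05, leave wide room for a difference, and without libraries 3 to 6 of Soy-20% + SAA their log2 fold changes turned from −0.90 to 0.15 and from −0.79 to 0.17. Cyp4a12b was higher on Cas-20% by 0.60 ± 0.22 (SE), with no test, and Cyp4a32 had too few reads to be tested here.

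Across all 5 diets at once, 4 of 5 members tested differed, beside 43.4% of 12561 genes. The edgeR adjusted p was 4.76e-07 for Cyp4a31, 1.32e-06 for Cyp4a12a, 0.000968 for Cyp4a14 and 0.00683 for Cyp4a32, and 0.0633 for Cyp4a10. Here too Cyp4a32 could be tested through diets where its counts were higher. By median, Cyp4a14 was lowest on Cas-20%, then close together on Soy-20% (5862) and Soy-20% + SAA (5895), higher on Soy-10% and highest on Cas-5%. The 2 close diets stood in the other order by mean, 6722 and 5612, and did not pass. Soy-10% passed against Soy-20% + SAA and not against Soy-20%, and Cas-5% did not pass against Soy-10%. By median, Cyp4a12b rose from Cas-5% through Soy-10%, Soy-20% and Soy-20% + SAA to Cas-20%, and of these neighbours only the livers of Soy-10% and Soy-20% did not overlap. For Cyp4a12a no Cas-5% liver reached the lowest liver of any other diet, and its medians on the other 4 diets lay between 3494 and 4447.

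Members were followed in the same livers once the mean of each diet had been removed, in 4 pairs over 30 livers with 100000 permutations within diets. Cyp4a10 and Cyp4a14 rose and fell together (Pearson's r = 0.897, Spearman's rho = 0.915, adjusted permutation p = 4e-05 for both). So did Cyp4a10 and Cyp4a31 (r = 0.828, rho = 0.794, adjusted permutation p = 4e-05 for both) and Cyp4a12a and Cyp4a12b (r = 0.604, rho = 0.654). The latter pair is given without a p, since it holds livers whose Cyp4a12b values chose the family. Cyp4a14 and Cyp4a12a went in opposite directions (r = −0.450, adjusted permutation p = 0.0247, rho = −0.544, adjusted permutation p = 0.00453). Without the 2 livers farthest from the median of the first gene, r was 0.882, 0.789, 0.546 and −0.425. In the other pairs the unadjusted permutation p for r were 1e-05, the smallest that 100000 permutations can give, 2e-05 and 0.0247, leaving out Cyp4a12a with Cyp4a12b. The adjustment was over all 4 pairs, so the adjusted p draw on that pair. Reads shared between near copies, a few windows in Cyp4a10 and Cyp4a31 and many in Cyp4a12a and Cyp4a12b, also bear on the pairs Cyp4a10 with Cyp4a31 and Cyp4a12a with Cyp4a12b, and their part was not tested.

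**Figure D3:**
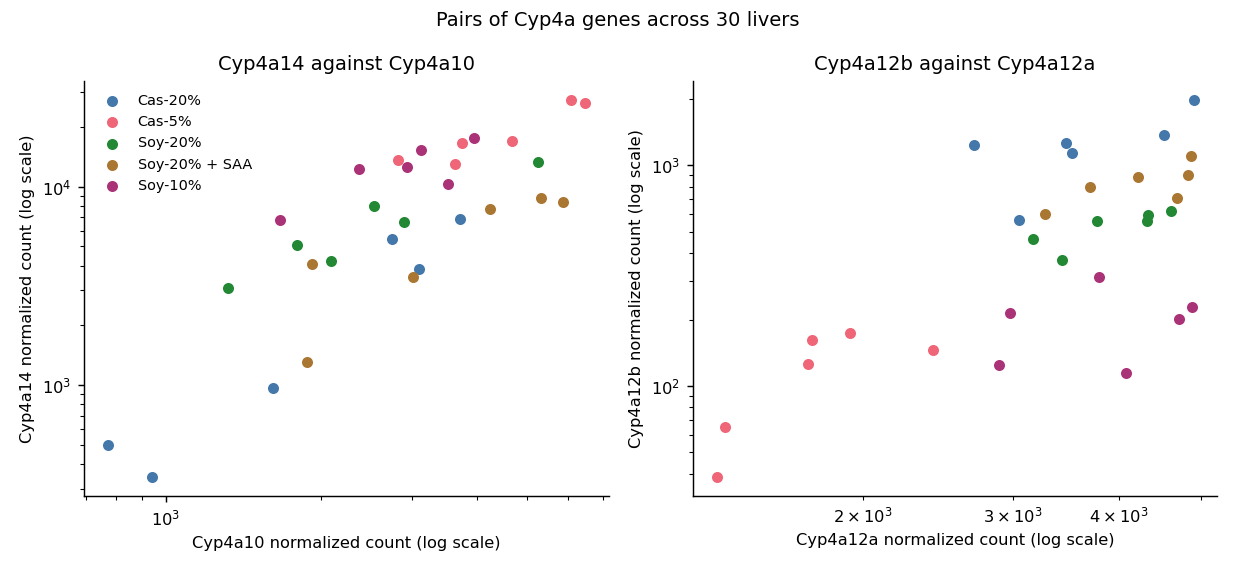
Normalized counts of Cyp4a14 against Cyp4a10 and of Cyp4a12b against Cyp4a12a (both axes log scale) in 30 livers coloured by diet. Within each diet the points of the first pair rise together (r = 0.897 after diet means are removed), and the restricted diets lie above the Cas-20% livers at the same Cyp4a10 level. In the second pair the Cas-5% and Soy-10% livers have the least Cyp4a12b, at most 312 normalized counts.

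Although they moved together, members of a pair did not keep the same proportion on all diets. The ratio of their reads within a liver needs no scaling between libraries, and was compared by two-sided exact permutation tests of 6 against 6 livers, whose smallest p is 0.00216, adjusted over 11 comparisons. The 11 include Cyp4a12b ratios that are given below without a test, so the adjusted p of the other ratios draw on them. These ratios were chosen after the values had been seen. Cyp4a14 reads per Cyp4a10 read had a median of 0.898 on Cas-20% (0.366 to 1.99) and 4.25 on Cas-5% (3.60 to 4.82), with no overlap. On Cas-20% the log2 ratio was −1.45 to −0.63 in livers 1 to 3 and 0.32 to 0.99 in livers 4 to 6. The mean log2 ratio was higher on Cas-5% by 2.16 ± 0.41 (SE, exact permutation p = 0.00216, adjusted p = 0.00476).

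On soy the same ratio had a median of 2.44 on Soy-20% (2.02 to 3.16), 1.53 on Soy-20% + SAA (0.699 to 2.12) and 4.39 on Soy-10% (2.95 to 5.19). Only the last 2 of these diets did not overlap. The log2 ratio was higher on Soy-10% than on Soy-20% by 0.76 ± 0.15 (SE, exact permutation p = 0.00433, adjusted p = 0.00680), and than on Soy-20% + SAA by 1.61 ± 0.26 (exact permutation p = 0.00216, adjusted p = 0.00476). It was higher on Soy-20% than on Soy-20% + SAA by 0.85 ± 0.25 (exact permutation p = 0.00433, adjusted p = 0.00680). Between the restricted diets it differed by −0.03 ± 0.14 (exact permutation p = 0.835), and between Cas-20% and Soy-20% + SAA by −0.58 ± 0.46 (exact permutation p = 0.242).

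Cyp4a12b reads per Cyp4a12a read had a median of 0.344 on Cas-20% (0.186 to 0.459) and 0.0662 on Cas-5% (0.0287 to 0.0925), with no overlap. The difference in log2 ratio was −2.43 ± 0.32 (SE, exact permutation p = 0.00216, adjusted p = 0.00476). On soy the ratio had a median of 0.136 on Soy-20% (0.109 to 0.148), 0.198 on Soy-20% + SAA (0.153 to 0.226) and 0.0449 on Soy-10% (0.0282 to 0.0824). These 3 diets did not overlap with each other.

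The log2 ratio of Cyp4a12b to Cyp4a12a was lower on Soy-10% than on Soy-20% by −1.44 ± 0.24 (SE), and on Soy-20% than on Soy-20% + SAA by −0.54 ± 0.11. Against Soy-20% + SAA the Soy-10% difference was −1.98 ± 0.24. It was higher on Cas-20% than on Soy-20% + SAA by 0.75 ± 0.20, and the restricted diets differed by 0.30 ± 0.35. These differences are given without a test, since they hold livers whose Cyp4a12b values chose the family. The 4 differences in the Cyp4a14 ratio that passed kept their sign whichever liver was left out, and those with Soy-20% + SAA were 1.80 and 1.04 without its libraries 3 to 6.

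**Figure D4:**
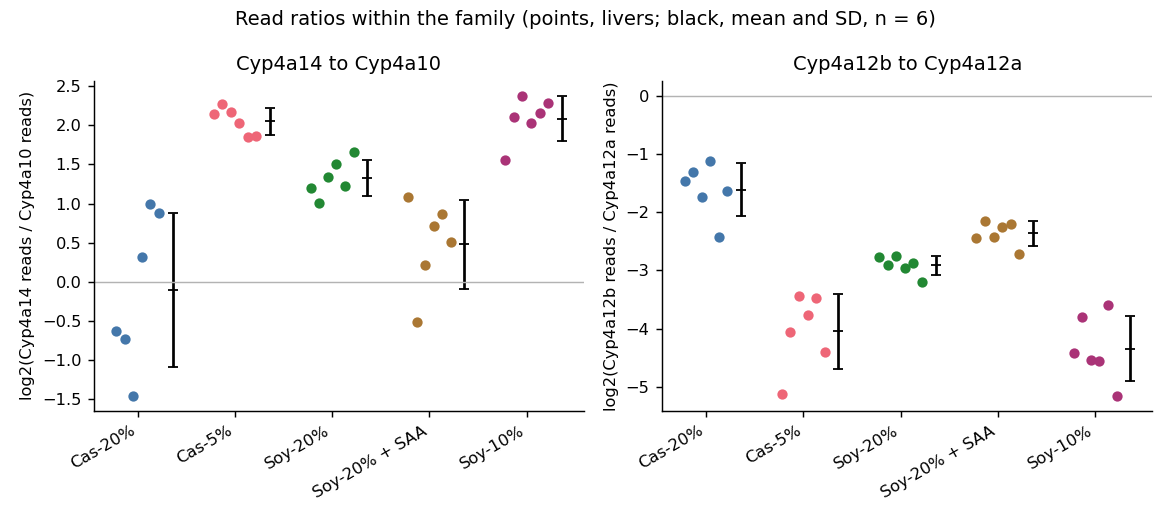
Log2 ratio of Cyp4a14 to Cyp4a10 reads and of Cyp4a12b to Cyp4a12a reads (vertical axes) in the 6 livers of each diet, with the mean and SD in black. Cas-5% and Soy-10% have the highest means in the first ratio, 2.05 and 2.09, and the lowest in the second, −4.04 and −4.34.

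Genes that share functions with the family were counted from lists. Of 27 tested PPARA targets, 8 rose and 1 fell with casein restriction, beside 11.6% of all genes called higher and 13.3% lower, and their median log2 fold change was 0.21 beside 0.02 over all genes. Retsat, a retinol saturase, rose by 1.298 ± 0.14 (SE, edgeR adjusted p = 6.11e-06), Fgf21, a hepatic hormone of protein restriction, by 2.56 ± 0.33 (adjusted p = 2.95e-05) and Acot1, an acyl-CoA thioesterase, by 1.79 ± 0.33 (adjusted p = 0.000719). In Soy-10% against Soy-20% only Fgf21 of the 27 passed, at 2.10 ± 0.32 (adjusted p = 0.00405), beside 0.866% of all genes called. Against Soy-20% + SAA, where 17.0% of all genes were called, 8 rose and 2 fell, and without libraries 3 to 6, where 317 genes were called, 4 rose and 0 fell.

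Later steps of omega-oxidation gave calls in both directions. Of 19 genes for the dehydrogenases, electron donors and peroxisomal enzymes, 1 rose and 5 fell on Cas-5%, beside 24.9% of all genes called. In Soy-10% against Soy-20% + SAA 4 rose and 3 fell, beside 17.0% of all genes called. None passed in Soy-10% against Soy-20% (6 at an unadjusted p under 0.05), where 0.866% of all genes were called. On Cas-5% against Cas-20%, Crot, which shuttles shortened fatty acids out of peroxisomes, rose by 1.04 ± 0.13 (SE, edgeR adjusted p = 2.22e-05). Cyb5r3, the reductase of cytochrome b5, fell in the same comparison by 0.996 on the log2 scale (SE 0.0980, edgeR adjusted p = 1.74e-06).

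Beside the 11.6% of all genes called higher and 13.3% lower on Cas-5%, 3 of 5 other CYP4 genes tested fell, namely Cyp4f14 (−0.57 ± 0.08, edgeR adjusted p = 5.57e-05), Cyp4v3 (−0.42 ± 0.07, adjusted p = 0.000264) and Cyp4f15 (−0.41 ± 0.07, adjusted p = 0.000696). Of 11 regulators tested, 2 rose and 2 fell. Ghr, the growth hormone receptor, had −0.49 ± 0.08 (adjusted p = 0.000178), Ncor1, a nuclear receptor corepressor, 0.39 ± 0.08 (adjusted p = 0.00121) and Hnf4a, a master hepatocyte factor, 0.27 ± 0.06 (adjusted p = 0.00496). Ppara itself did not pass on Cas-5% (adjusted p = 0.182). Markers of other cells moved with casein restriction as well, since 4 of 5 red blood cell markers and the 1 adipocyte marker tested fell, 2 of 5 stellate and 1 of 5 endothelial markers rose, 2 hepatocyte markers rose and 2 fell, and 0 of 5 Kupffer and 0 of 2 cholangiocyte markers passed. Red blood cell markers summed to 15728 to 34944 normalized counts on Cas-20% and 11503 to 19812 on Cas-5%, stellate markers to 3034 to 3818 and 3565 to 4901, and their part in the Cyp4a changes was not tested.

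**Figure D5:**
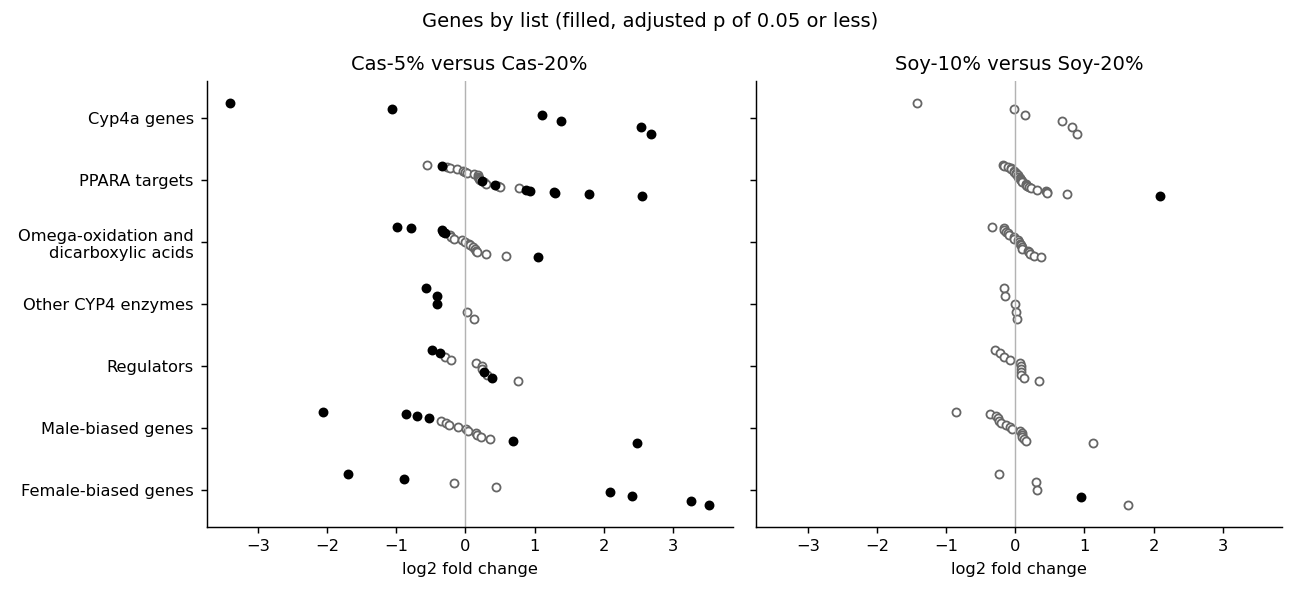
Log2 fold change (horizontal axis) of the Cyp4a genes and of the genes of 6 lists (rows), for Cas-5% against Cas-20% and Soy-10% against Soy-20%, 6 livers per diet. Filled points passed the edgeR test at an adjusted p of 0.05. All 6 Cyp4a genes are filled on casein and 0 on soy, where Cyp4a12b was not tested, and 9 of 27 PPARA targets are filled on casein and 1 on soy. Over all genes tested, 24.9% passed on casein and 0.866% on soy.

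Outside the family, the genes whose log2 CPM followed Cyp4a14 most closely over the 30 livers, among 12027 compared, were Eci2 (r = 0.916), Acot1 (0.902), Abhd6 (0.897), Retsat (0.897) and Vnn1 (0.897). For the sum of Cyp4a12a and Cyp4a12b they were Acadsb (r = 0.913), Prdx5 (0.902), Apon (0.888), Agxt (0.875) and Serpina1d (0.872). These values describe livers that share diet, library and depth, and with diet means removed they ranged from 0.782 to 0.872 for the first group and from 0.448 to 0.626 for the second.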

How the data were processed

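Liver RNA was made into 3′ libraries with the Lexogen QuantSeq kit, sequenced on a NextSeq 500 and processed by the authors with the QuantSeq pipeline 2.3.6. The methods give 75 bp reads, the labels 50 bp. The aligner, the counter and the annotation release are not given in the sources used here, and the submitters' processing notes name R 4.0.3, DESeq2 1.30 and GRCm38 (mm10). One deposited table holds raw counts per gene, each with at least 90 counts over 30 livers. The other holds a normalized signal, those counts divided by the authors' DESeq2 size factors (0.759 to 1.297), with no scaling for length.

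Raw counts were tested in R 4.3.3 with edgeR 4.0.16 (filterByExpr, TMM, quasi-likelihood F test, two-sided, Benjamini-Hochberg over all genes). The method was tested on simulated data. DESeq2 1.42.0, RLE scaling, no filter, summed near copies, a replicate block, leaving out livers or libraries 3 to 6 of Soy-20% + SAA, and the GC trend of each library as a covariate were alternatives. Normalized counts are printed as levels. Log2 CPM used a prior count of 2. Exact and permutation tests were run in scipy 1.17.1 with Python 3.11.15, numpy 2.4.6 and pandas 2.3.3, identities were computed with biopython 1.88, and figures were drawn with matplotlib 3.10.9. Coordinates of the 6 members equal those of GENCODE M21, from which sequences were read.

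Members and lists were chosen with earlier results of these data known, and p-values of Cyp4a12b in comparisons that hold livers used in that choice are not printed. Named were every member, from each list up to 3 genes with the smallest adjusted p in Cas-5% against Cas-20%, and the 5 genes most like Cyp4a14 or the Cyp4a12 sum with a mean of at least 10 counts per liver. Counts limit the precision for Cyp4a32 most. Some genes that the rule would name are not reported here.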

Additional observations from a re-analysis of the deposited data

Results flagged for a closer look

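Among the members, 2 had effects of restriction that differed between the casein and the soy diets by the test of the difference itself (edgeR, 24 livers, Soy-20% + SAA as the soy control). Protein source and the size of the protein cut cannot be told apart in it. Subtracting the soy effect from the casein effect gave 1.90 on the log2 scale for Cyp4a31 and −0.93 for Cyp4a12a. Neither passed without libraries 3 to 6 of Soy-20% + SAA, which left 2 livers of that diet. Both passed with Soy-20% as the soy control, where the methionine cut also differed between casein and soy. With the GC trend of each library as a covariate Cyp4a12a kept its call and Cyp4a31 did not (edgeR adjusted p = 0.123). The cause was not tested. Of 30 sets of 6 livers, 6 genes on 5 diets, none held a liver whose gap to the others passed Dixon's critical value of 0.625. That check looks at single livers and cannot register a split such as that of Cyp4a14 on Cas-20%.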

How the results depend on the processing

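Of 177 counts of called members, 1 for each comparison and setting, 159 stayed within 1.5 times the count of the fit reported. These counts hold Cyp4a12b wherever it was fitted, except in Soy-10% against Soy-20% + SAA, the casein effect less the soy effect and the test over 5 diets. Where Soy-10% or Soy-20% + SAA livers enter, its part in a count is not a result, since those livers' values chose the family. With each liver left out in turn the count ranged from 0 to 1 in Soy-10% against Soy-20% + SAA, from 1 to 2 in Soy-10% against Soy-20% and from 0 to 1 in Soy-20% against Soy-20% + SAA. The 1 call in the last of these, also made by DESeq2, was of Cyp4a12b and is not a result, for the reason above. In Soy-10% against Soy-20% the call made whichever liver was left out was of Cyp4a12b too, and likewise is not a result. The other call there was of Cyp4a14, without liver 3 of Soy-20%. With near copies summed, each gene was counted by its summed row. Soy-10% against Soy-20% then had 0 calls, as in the fit reported once Cyp4a12b is set aside. Cas-5% against Soy-10% had 5 (2 rows, 1 of them with Cyp4a12b), and the casein effect less the soy effect had 1. That last count was 0 without libraries 3 to 6 of Soy-20% + SAA and 1 with the GC trend as a covariate. The causes were not tested.

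Libraries 3 to 6 of Soy-20% + SAA turned signs. Without them Cyp4a10 was 0.62 in Soy-10% and 0.48 in Soy-20% against this diet, and 0.51 and 0.44 with the GC trend. Cyp4a31 in Soy-20% against it was 0.27 and 0.38, and in Cas-20% against it Cyp4a10 was 0.17 and Cyp4a14 0.15 without them. Summing near copies gave −0.31 for Cyp4a31 and Cyp4a32 in Soy-10% and −0.47 for Cyp4a32 in Soy-20% against Soy-20% + SAA, and −0.038 for Cyp4a12b in Cas-20% against it. Leaving out 1 liver spread Cyp4a12a in Soy-10% against Soy-20% from −0.093 to 0.052. In Soy-20% against Soy-20% + SAA it spread Cyp4a32 from −0.063 to 0.31 and Cyp4a14 from −0.044 (without Soy-20% liver 3) to 0.43. The log2 ratio of Cyp4a14 to Cyp4a10 in Cas-5% against Soy-10% went from −0.14 to 0.025. None of these values passed a test.

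Over all genes, Soy-10% against Soy-20% + SAA had 2035 calls, 317 without libraries 3 to 6 and 372 with the GC trend. Soy-20% against Soy-20% + SAA had 1 call, 873 by DESeq2 and 0 in both of those fits, Cas-20% against Soy-20% + SAA had 291, 3 and 5, and the casein effect less the soy effect had 1089, 296 and 586. The test over 5 diets had 5450, 3433 and 3524.

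Replicate numbers did not pair the livers, since same-numbered livers' deviations correlated from −0.190 to 0.194. With a replicate block 1 member passed in Cas-20% against Soy-20% + SAA, Cyp4a10 at −0.87 (edgeR adjusted p = 0.0483). In Cas-5% against Soy-10% Cyp4a10 no longer passed (adjusted p = 0.0814), and in the casein effect less the soy effect Cyp4a10 passed at 1.40 (adjusted p = 0.0375). Low counts limit Cyp4a32 most, at 2 to 27 per liver. The ratio alternatives were chosen after seeing the data.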

Other observations

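Liver genes with a sex bias were counted beside Cyp4a12a and Cyp4a12b, whose falls on Cas-5% are described above. Of 16 male-biased genes tested, 2 rose and 4 fell on Cas-5% against Cas-20%, beside 11.6% of all genes called higher and 13.3% lower, and 2 rose and 1 fell in Soy-10% against Soy-20% + SAA, beside 17.0% called. Of 21 female-biased genes only 8 had enough reads to be tested on casein, and a gene could reach that number through the diet where it was high, so that no count is given. Cyp2c69 rose by 3.52 ± 0.32 on the log2 scale (SE, n = 6 per diet), from a median of 10.8 normalized counts to 149. Cyp2c40 rose by 2.41 ± 0.23, from 19.6 to 112. Both are female-biased P450 enzymes with few reads on Cas-20%, and for that reason are given without a p. Cyp39a1, an oxysterol hydroxylase of the same list, rose by 2.09 ± 0.19 (edgeR adjusted p = 8.26e-07). Among male-biased genes Ugt2b1, a glucuronosyltransferase, had −0.85 ± 0.12 (edgeR adjusted p = 4.96e-05), Cyp2u1 −0.69 ± 0.16 (adjusted p = 0.00452) and Cspg5 2.48 ± 0.42. Cspg5 had few reads, with a median of 8.14 normalized counts on Cas-20% and 50.3 on Cas-5%. It could reach the test through Cas-5% and is also given without a p, although it is among the 2 counted above as risen. In Soy-10% against Soy-20%, 0 of 16 male-biased genes passed in edgeR (3 at an unadjusted p under 0.05), beside 0.866% of all genes called. Cyp39a1 did pass there, at 0.95 ± 0.16 (adjusted p = 0.00784).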
